A study of Mus musculus with 2 samples.

Results

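The T cell receptor is built from an alpha and a beta chain, or from a gamma and a delta chain, and the genes of all of them are assembled from variable (V), diversity, joining (J) and constant (C) segments. In the thymus, immature T cells (thymocytes) first join segments of the beta, gamma and delta loci, and those that make a working beta chain go on to join the alpha locus. The delta segments lie inside the alpha locus and are cut out when alpha segments join. The transcript of an assembled chain ends in a constant segment, so a constant-region probe reads chains that use different V and J segments. Where a locus has several constant genes, a probe need not read all of them. A V or J probe reads only the transcripts that hold its segment, whether or not they make a working chain.

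Transcripts of these loci were read by 32 of the 41174 distinct probes of a 2-colour Agilent array. The probes were taken by their gene name on the array (16), by a description that names a T cell receptor chain (26), or by both (10). By mapped position and description, 13 belong to the beta locus, 11 to the alpha locus, 1 to the delta locus and 6 to the gamma locus. The remaining 1 maps outside these loci.

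RNA came from whole thymus of 6-month-old Pla2g10-Tg/+ mice, which carry a transgene for a secreted phospholipase A2, and of littermate controls without it, all on a C57BL/6 background and kept on a standard diet. The labels do not name the promoter that drives the transgene. Each genotype was a pool of RNA from 4 mice, hybridised to 2 arrays. On array 1 the transgenic pool carried the red dye and the control pool the green dye, and on array 2 the dyes were exchanged. The labels call the arrays replicates without naming separate pools, so each genotype was counted as 1 pool and no test across animals was made. Each ratio below is log2 of transgenic over control signal. A mean stands with the SD of its 2 array values (n = 2 arrays), which is a technical spread. In whole tissue, fewer cells of a type and less RNA per cell cannot be told apart.

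The labelled tissue was borne out by its markers: 12 of 13 listed immature thymocyte genes were well above background, Rag2 being the exception, against 2 of 9 B cell genes. Well above background is the scanner software's own call for a spot. A probe was compared if it met that call in 1 genotype on both arrays, as 12235 probes did. After turning, the log2 ratios of the 2 arrays correlated at 0.292 over these probes, which are not independent replicates. The median of their mean log2 ratios was -0.0059.

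Receptor transcripts were measured for the beta, alpha and gamma loci, and the means of their 2 array values lay near 0. Since the arrays often disagreed and each genotype was 1 pool, these means do not show that the genotypes were equal. Of the 32 probes, 18 could be compared: 11 of 13 for beta, 5 of 11 for alpha, 2 of 6 for gamma and 0 of 1 for delta. Their mean log2 ratios ran from -0.21 to 0.088, with a median of -0.076, and 13 of 18 lay below 0 against 51.9% of all probes compared. None was at least 2-fold different, a rule that asks for a mean of 1 or more in size, with 0.5 or more per array. Among all probes compared, 0.0327% were that much higher and 0% that much lower. At a smaller step of 0.25 (a 1.19-fold difference) on both arrays, 0 of the 18 were higher and 0 lower, against 1.6% and 1.21% of all probes. Within 0.25 of 0 on both arrays were 11 of the 18, against 78.2% of all probes compared.

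Signs on the arrays were mixed. Below 0 on both arrays were 6 of 18 receptor probes, against 29.4% of all probes compared, and above 0 on both were 4, against 27.5%. The other 8 had opposite signs on the arrays, against 43.1% of all probes. These shares are near those of the whole array.

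The raw signals differed between dyes. In 15 of the 18 probes both red signals were brighter than both green signals, whichever genotype carried the dye. In those 15 probes the raw signals of the genotypes must overlap, since each genotype had 1 red and 1 green signal. The transgenic and control signals overlapped in 17 of 18 probes. The exception, the beta probe A_52_P1078023, named Tcrb-J, read 79.9 and 71.6 in the transgenic channels and 81.5 and 91.0 in the control channels. After normalization it was at -0.23 on array 1 and 0.0023 on array 2. For the counts of 15 and 17, the share over all probes compared was not taken. Comparing within a dye, the green transgenic signal was below the green control signal in 18 of 18 probes, but also in 91.4% of all probes compared. In red the transgenic signal was below the control signal in 9 of 18, against 32.8% of all probes.

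The constant end of the beta locus was read by 4 probes, with signals of 3250 to 15010 scanner units. On the mm8 genome, probe A_51_P210310 matches chr6:41468191-41468868 on the plus strand, a stretch of 678 bases for a probe of about 60 bases, so its match is split. The array describes it as similar to the C region of the beta-1 chain. Probes A_51_P407832 (chr6:41476339-41476398), A_51_P478172 (chr6:41476666-41477230) and A_52_P102846 (chr6:41477864-41477923) lie 8.15 to 9.67 kb past it. They were designed on a complete beta chain mRNA and carry the array name Tcrb-V13, after a V segment. In contrast, the other 3 probes named Tcrb-V13 lie 311 to 403 kb before the beta-1 constant probe, so that the 6 probes with that name do not read 1 segment. The RefSeq table of GRCm38.p6 lists 2 neighbouring beta constant genes, Trbc1 and Trbc2, which are near-identical copies, and which of them a probe reads was not assigned.

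Beta constant-region RNA showed no direction common to both arrays. Probe A_51_P210310 read 15010 (array 1) and 6560 (array 2) in the transgenic pool and 8236 and 13400 in the control pool. The red channel was the brighter one on each array. With the dyes exchanged, these raw signals overlap between genotypes because of the dye gap, so the overlap does not compare their levels. Its log2 ratio was -0.30 on array 1 and 0.21 on array 2, a mean of -0.045 ± 0.36. Probe A_51_P478172 read 11493 and 5708 in the transgenic pool and 6682 and 11723 in the control pool, a mean log2 ratio of -0.081 ± 0.38. Probe A_52_P102846 read 12466 and 5264 against 6554 and 11474, a mean of -0.057 ± 0.21. Probe A_51_P407832 read 5693 and 3250 against 4082 and 5693, and had the widest gap of the 18 probes, with -0.56 on array 1 and 0.33 on array 2 (mean -0.11 ± 0.63).

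All 4 of these probes were thus below 0 on array 1 and above 0 on array 2, so that after normalization green read above red on both arrays. Of all 18 receptor probes 7 showed that pattern, against 19.4% of all probes compared. The means of the 4 constant-end probes were all below 0, with a median of -0.069, but smaller than the gap between the arrays. Between 28 and 102 of the 12235 probes were brighter than these 4. Of the other 99 probes at least as bright as the dimmest of them, 24 showed that sign pattern and 1 had a gap as wide as A_51_P407832. The medians of these 99 were 0.030 on array 1 and 0.11 on array 2; the part of dye and brightness in the constant-region values was not tested.

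Of the 9 beta probes before or between the constant probes, the 7 that could be compared had signals of 58.3 to 176 units. At the far end, 476 kb before the beta-1 constant probe, 3 probes lie next to each other (chr6:40992260-40992497). The array describes 1 of them, A_52_P1078018, as beta variable 13 and the others, both named Tcrb-J, as similar to beta V-D-J RNA. Probe A_52_P1078018 was at -0.0032 and -0.14 on arrays 1 and 2 (mean -0.074 ± 0.10) and A_52_P1078023 at -0.23 and 0.0023 (mean -0.11 ± 0.16). The third, A_51_P117933, was not well above background in any channel.

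V-region probes nearer the constant genes lay above 0 in the mean. Probe A_52_P184629 (chr6:41065152-41065211), on a rearranged V-J-C beta mRNA, read 120 and 84.6 in the transgenic pool and 92.4 and 103 in the control pool. It was at 0.038 and 0.14 on the 2 arrays (mean 0.088 ± 0.071). Probe A_52_P1158254 (chr6:41108506-41108565), on the V region of the LB2 beta chain, was at 0.029 and 0.14 (mean 0.086 ± 0.081). Probe A_52_P557517 (chr6:41071176-41071235), on a rearranged V-D-J-C beta chain, was at -0.16 and 0.27 (mean 0.056 ± 0.31), so the arrays differed in sign. A further probe named Tcrb-V13, A_52_P372418, was not well above background in any channel.

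Close to the constant genes, probe A_52_P74680 (chr6:41464910-41464967), on a nonfunctional beta transcript, was at 0.0046 and 0.15 (mean 0.079 ± 0.10). Probe A_51_P445882 (chr6:41473639-41473698), described as the beta joining region, lies between the constant-end probes. Its signals were 102 and 71.6 in the transgenic pool and 85.8 and 103 in the control pool, and its log2 ratios -0.048 and -0.12 (mean -0.082 ± 0.048). Over the 7 beta probes outside the constant end that could be compared, the median was 0.056 and the means ran from -0.11 to 0.088. With its 4 constant-end probes the locus had a median of -0.057, made of -0.16 on array 1 and 0.14 on array 2.

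Alpha-locus probes had means below 0 in 5 of 5 cases, with a median of -0.11 and a range of -0.21 to -0.065; over all probes compared, 51.9% were below 0. Only 3 of the 5 were below 0 on both arrays, against 29.4% of all probes. One of these 3, A_52_P419539, passed the background call on both arrays in the control pool alone; the 4 alpha probes that passed in both genotypes had a median of -0.12. Taken separately, the arrays gave all 5 compared alpha probes medians of -0.092 (array 1) and -0.064 (array 2). None reached 0.25 below 0 on both arrays.

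At the constant end of the alpha locus lie 2 probes designed on a complete alpha chain mRNA and named Tcra. Probe A_52_P112591 matches chr14:53180136-53181030, a split match over 895 bases. It read 131 and 93.3 in the transgenic pool and 127 and 142 in the control pool, and was at -0.32 and -0.10 on the 2 arrays. Its mean of -0.21 ± 0.16, a control level 1.16-fold that of the transgenic pool, was the lowest of the 18 receptor probes. The neighbouring probe A_51_P484329 (chr14:53182042-53182101) read 569 and 258 in the transgenic pool and 334 and 569 in the control pool. It was at 0.10 on array 1 and -0.31 on array 2 (mean -0.11 ± 0.29). The probes of this end of the locus therefore shared a sign in the mean and on array 2, but not on array 1.

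Of the 9 alpha probes before the constant end, 3 could be compared. Probe A_52_P480620 (chr14:53158559-53158618), named Tcra and lying 23.5 kb before the last constant-end probe, read 629 and 345 in the transgenic pool and 470 and 618 in the control pool. It was at -0.28 on array 1 and 0.0026 on array 2 (mean -0.14 ± 0.20). Probe A_52_P419539 (chr14:53164215-53164274), described as a V region homolog although it lies 17.8 kb from that end, was at -0.092 and -0.063 (mean -0.078 ± 0.021). The transgenic pool passed the background call for it on array 1 alone. Probe A_52_P614198 (chr14:51777930-51777989), described as alpha variable 2.2 and lying 1404 kb before the constant end, was at -0.066 and -0.064 (mean -0.065 ± 0.0013). It had the smallest gap between arrays of the 18 probes.

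The other 6 alpha probes gave too little signal to compare. One of them, A_52_P31751, matches mm8 in parts that are 468316 bases apart from end to end, and another, A_52_P659566, in parts spanning 385616 bases. Segments that lie far apart in the genome are brought together in a rearranged chain; whether these matches cross such a joint was not examined. A_52_P31751 was well above background in the red channel of both arrays and in neither green channel, and A_52_P659566 in 0 of 4 channels. The remaining ones, A_52_P32920, A_52_P364327, A_52_P210002 and A_52_P630029, were also at background in all 4 channels. Among the 14 receptor probes left out, 13 were well above background in 0 of 4 channels, with signals of 34.9 to 62.2 units over all 14 against local backgrounds of 31 to 39.

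Gamma chains, which pair with delta chains in a small T cell lineage, were read by 2 probes on the minus strand of chromosome 13. Probe A_51_P429241 (chr13:19312471-19312530) read 372 and 195 in the transgenic pool and 226 and 321 in the control pool. It was at 0.11 and 0.021 on the 2 arrays (mean 0.066 ± 0.064). Probe A_51_P354616 (chr13:19312635-19314713), designed on an aberrantly joined gamma mRNA of a cytotoxic T cell line and split over 2079 bases, was at -0.049 and -0.15 (mean -0.10 ± 0.073). The 2 probes are neighbours on the genome and had opposite signs on both arrays, so the gamma locus gave no common direction.

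The gamma constant probe A_51_P285256, named Tcrg-C, read 39.3 and 46.7 in the transgenic pool and 46.8 and 45.8 in the control pool and was not well above background in any channel. The RefSeq table lists 4 gamma constant genes, and this probe maps to the plus strand while both measured gamma probes map to the minus strand. The V probe A_52_P526485, named Tcrg-V2, and the probes A_52_P200125 and A_52_P593787 were likewise at background. The single delta probe A_52_P448696 (chr14:52213819-52213878), on a delta V region RNA, read 41.7 and 44.2 in the transgenic pool and 47.5 and 40.3 in the control pool. Delta transcripts were therefore not detectable with this probe. A probe described as alpha chain RNA from hypothalamus, A_52_P188549, maps to chromosome X, is named Brcc3 and was at background in all 4 channels.

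Set side by side, the loci did not keep an order across the arrays. The alpha median minus the beta median was 0.068 on array 1 and -0.21 on array 2. The alpha median minus the gamma median was -0.12 and 0.0015, and the beta median minus the gamma median -0.19 and 0.21. Each of these differences changed sign with the array, and the ranges of the loci overlapped: -0.21 to -0.065 for alpha, -0.11 to 0.088 for beta and -0.10 to 0.066 for gamma.

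Genes that work with the receptor loci were read for comparison, by the brightest probe compared of each gene. Receptor complex partners had a median of -0.14 over 5 of 5 genes, 1 of which was lower by 0.25 on both arrays and 0 higher (1.21% and 1.6% of all probes). Ptcra, the pre-T alpha chain that pairs with the first beta chain of a thymocyte, was that gene, at -0.35 and -0.25 (mean -0.30 ± 0.070). The CD3 and zeta chains, which carry the signal of the finished receptor, were nearer 0: Cd3g was at -0.14 ± 0.034, Cd3e at -0.0078 ± 0.10 and Cd3d at 0.029 ± 0.031. Cd247, the zeta chain gene, was at -0.16 ± 0.036, with another of its 3 probes at 0.29.

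Rearrangement genes had a median of -0.028 over 11 of 12 genes, with 2 lower by 0.25 on both arrays and 0 higher (1.21% and 1.6% of all probes). These were Rag1, a subunit of the recombinase that cuts receptor segments (-0.31 ± 0.042), and Dntt, which adds bases at the joints (-0.41 ± 0.20). The end-joining ligase gene Lig4 was at -0.26 ± 0.17, and the Ku subunit genes Xrcc5 and Xrcc6 at 0.15 ± 0.061 and 0.13 ± 0.16. Transcription factors that act on receptor loci had a median of -0.057 over 12 of 12 genes. Of these, 1 was lower by 0.25 on both arrays and 0 higher (1.21% and 1.6% of all probes). Tcf7 was at -0.22 ± 0.0037, with its other probe at -0.35, and Gata3 at -0.18 ± 0.11. Ets1 was at 0.032 ± 0.014, with another of its 4 probes at -0.15.

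Immature thymocyte markers, which share genes such as Ptcra, Rag1 and Dntt with these lists, had a median of -0.32 over 12 genes. By their brightest probes, 7 of the 12 were lower by 0.25 on both arrays, against 1.21% of all probes. Arpp21, 1 of these 7, was at -0.37, with another of its 3 probes at 0.45. The signals of the 12 sum to 38367 and 15905 in the transgenic pool and 23276 and 44261 in the control pool on arrays 1 and 2. Among them the chemokine receptor gene Ccr9 was at -0.53 ± 0.10, the co-receptor gene Cd8a at -0.51 ± 0.00073 and the co-receptor gene Cd4 at 0.025 ± 0.0016. The means of the 3 Cd8a probes ran from -0.56 to -0.19. This Cd4 probe was dim, with signals of 60.4 to 71.3 units, and the other Cd4 probe was at -0.12. The receptor probes, at a median of -0.076 and with 0 of 18 lower by 0.25 on both arrays, lay nearer 0 than these markers. The sets were unlike: every receptor probe was kept, dim ones included, but only the brightest probe of each marker gene. With an offset of 0, which does not shrink dim probes, the medians were -0.11 for the receptor probes and -0.40 for the markers. The difference was not tested. Markers of mature T cells, which also transcribe both chains, had a median of -0.041 over 9 genes, 3 of them higher and 1 lower by 0.25 on both arrays (1.6% and 1.21% of all probes). Ccr7 was at 0.45 ± 0.15 and Klf2 at -0.54 ± 0.20, with its other probe at 0.59.

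Other cells of the tissue were read by their markers too. Listed gamma delta T cell genes had a median of -0.24 over 5 of 11. Of these 5, 4 had means below 0, against 51.9% of all probes. By 0.25 on both arrays 1 was lower and 0 higher (1.21% and 1.6% of all probes). The 1 with a mean above 0 was Cd163l1, a scavenger receptor gene of gamma delta cells, at 0.21 ± 0.022. Sox13, Blk, Il23r and Il17a were not well above background. For innate-like T cells the median was 0.080 over 4 of 9 genes, and for B cells 0.23 over 2 of 9. Macrophage and neutrophil markers had a median of -0.011 over 8 of 9, with members on both sides of 0. The neutrophil gene S100a9 was at 0.62 ± 0.0082 and was the 1 of the 8 higher by 0.25 on both arrays (1.6% of all probes). S100a8, its partner, was at 0.61 on array 1 and 0.12 on array 2, and the macrophage gene C1qb at -0.18 ± 0.15. Adipocyte markers had a median of 0.78 over 5 of 8, and 5 of these 5 were higher by 0.25 on both arrays, with Cfd at 1.61 ± 0.0065. Without the offset of 50 that shrinks dim signals, the median was 1.65 and Cfd at 3.26. Their signals sum to 2127 and 1135 in the transgenic pool and 772 and 1049 in the control pool. Adipoq, Plin1 and Retn were not well above background, and the part of other cell types in the receptor values was not tested.

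Processing moved the size of the probe means more than their sign. Under each alternative treatment of signal, normalization and filter that used both arrays, every receptor probe compared kept the sign of its mean. A dye shift that both arrays share cancels in such a mean. Signs on the separate arrays did move. With median centring, 1 probe was above 0 and 1 below 0 on both arrays, against 4 and 6 with loess. The shares of all probes compared under median centring were not taken. On a single array, 6 signs changed on array 2 and 2 on array 1.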

How the data were processed

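The authors deposited mean spot and median local background intensity for each dye which Feature Extraction 9.5.1.1 had read out, as given per the file headers. The deposited LogRatio and series table hold log10 ratios of red over green processed signals, not turned for the dye swap (medians -0.113 and -0.101 in the table). The 0 or 1 calls for spots well above background are the software's, per the file headers. Labelling began with 500 ng of RNA, per the labels.

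Mean signals were corrected by normexp with an offset of 50 and normalized by loess within arrays (limma 3.58.1, R 4.3.3), with control and outlier spots at weight 0. Outlier spots (46 and 37 on arrays 1 and 2) were dropped. Array 2 was turned for the dye swap. The offset shrinks ratios of dim probes. The scripts were tested on simulated dye-swapped arrays.

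Probe positions are on mm8, per the file headers; exons and UTRs are not given, since an mm8 annotation was not used here. Of the accessions of the 32 receptor probes, 0 are in the RefSeq table. Of all distinct probes, 23366 were named by accession, 6739 by symbol, 2918 by synonym and 8151 by the array's own name. Letter case was ignored in descriptions. Each receptor probe had 1 spot, and none was saturated. The precision of these values is limited by the number of arrays.

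Named were all constant-end probes, up to 6 highest and 6 lowest and the 3 brightest probes of a locus, and all measured gamma probes; others were named to account for every probe. The members and lists were chosen with earlier results of these data known, and the split of the beta locus into constant end and rest after its values were seen. Alternatives were other offsets, background correction, normalization, log ratio, filter, single arrays and limma across arrays. The values of 1 listed gene are not reported here.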

Additional observations from a re-analysis of the deposited data

How the results depend on the processing

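No receptor probe was 2-fold different under any alternative run. The alpha median of -0.11 was -0.15 with an offset of 0, -0.17 with median centring, -0.13 with the scanner software's log ratios or the series table, and -0.073 with no filter on dim probes. The gamma median of -0.017 was -0.086 with the software's log ratios or the series table, -0.077 with an offset of 0, -0.055 with median centring and 0.00034, its sign turned, with no filter. The median of all receptor probes, -0.076, was -0.12 with the software's ratios or the table and -0.043 with no filter. The beta median, -0.057, was -0.099 with those ratios and -0.089 with median centring. With these ratios 1 probe was lower by 0.25 on both arrays and 2 were above 0 on both. With median centring, 1 probe was above 0 and 1 below 0 on both arrays, and the turned arrays correlated at -0.463; with no filter, 8 were above 0 on both. On single arrays, 0 to 2 probes were higher and 1 to 5 lower by 0.25, 5 to 11 were above 0 and 7 to 13 below 0. A rule on a single array is easier to pass than the same rule on both. The shares over all probes compared were not taken for these alternative runs, so their counts cannot be set against the whole array. On single arrays the median of all receptor probes ran from -0.079 to 0.012, of alpha from -0.092 to -0.064, of beta from -0.16 to 0.14 and of gamma from -0.066 to 0.031. The cause of the shifts between runs was not tested. The delta locus gave no median, its probe being at background. With each array taken as its own measurement, limma gave 0 receptor probes at adjusted p under 0.05 (smallest adjusted p = 0.38) and 1 at unadjusted p under 0.05, against 154 of all 12235 probes compared at adjusted p under 0.05; it covers only the spread between arrays. Every ratio, in this fit too, already pairs both genotypes within an array. Signal over background limits the dim V probes and the delta probe.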
